A study of Homo sapiens with 12 samples.

Results

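The SR proteins and the heterogeneous nuclear ribonucleoproteins (hnRNPs) were examined as 1 module of splicing factor genes. Its members were all gene names in the expression list that consist of SRSF and a number or that begin with HNRNP, a rule that used no measured value. This gave 39 of 22963 names: 12 SRSF genes, SRSF1 to SRSF12, and 27 HNRNP genes. Expression had been measured by RNA sequencing in 12 libraries of 2 human hepatocellular carcinoma (HCC) cell lines, in 4 groups of 3 libraries that the labels number as biological replicates. Values are FPKM, mapped fragments per transcript length and library size, a level that is scaled by transcript length and can therefore be compared between genes.

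SR proteins carry RNA recognition motifs and a tail rich in arginine and serine, bind exonic enhancers in pre-mRNA and recruit the spliceosome to weak splice sites. The hnRNP proteins coat nascent transcripts, often repress the exons they bind, and also act in mRNA export, stability and translation. Many genes of both families regulate themselves through alternative exons that send the transcript to nonsense-mediated decay, and a level summed over a gene does not separate such transcripts from coding ones.

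The PLC/PRF5 groups were a control of WT genotype that carried the empty vector, and cells with EGR1 overexpression. The overexpression plasmid held the EGR1 coding sequence, so it adds transcripts without the regulatory regions of the endogenous gene. The MHCC97H groups were WT parental cells and cells labelled EGR1 knockout, made with lentiCRISPR. The study derived its knockout cells as single clones, and which clone was sequenced is not given in the sources used here, so the effect of the edit and that of picking a clone cannot be told apart. All 4 groups were grown in DMEM with 10% serum, and the labels name no other agent.

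EGR1, the zinc finger transcription factor that was manipulated, was read first as a check of the labels. Its level was 1.97, 1.43 and 2.03 FPKM in the vector libraries and 56.3, 50.2 and 52.2 FPKM in the overexpression libraries (log2 fold change 4.27, adjusted p = 1.58e-07 by limma). Fold changes here and below are differences of log2(FPKM + 1), a scale that understates changes of genes near or below 1 FPKM. In MHCC97H it was 20.2, 23.1 and 21.2 FPKM in the parental libraries and 35.2, 50.3 and 32.9 FPKM in those labelled knockout, a log2 fold change of 0.83 (adjusted p = 0.00126 by limma) that was 0.48 (adjusted p = 0.0492 by limma) after the GC content and length correction described below. Thus EGR1 mRNA was higher in every library labelled knockout than in every parental library, which goes against the label on the mRNA level, and those libraries are called by their label throughout. An mRNA level does not show whether an edited transcript encodes the protein. The paper reports that its knockout clones were checked by western blot and by sequencing of DNA. Protein was not measured in the data used here.

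Replicates correlated at r = 0.993 to 0.997 within groups on log2(FPKM + 1). Of 13 hepatocyte lineage markers, 12 reached a mean of 1 FPKM in both PLC/PRF5 groups, 7 in parental MHCC97H and 8 in the libraries labelled knockout. In both MHCC97H groups APOA2 was listed at 0 and SERPINA1, TTR and APOA1 had means below 1 FPKM, and ALB had a mean of 0.885 FPKM in the parental cells. Their summed level was 4063 to 4310 FPKM in the vector libraries, 4872 to 6153 with EGR1 overexpression, 1487 to 1873 in parental MHCC97H and 2284 to 2717 in the libraries labelled knockout. Of 10 markers of other liver cell types, 3 reached 1 FPKM in both PLC/PRF5 groups and 4 in both MHCC97H groups, with KRT19 the main difference, while PTPRC, CD3E and COL1A2 were at or near 0 in every group. The summed level of these 10 markers was 33.6 to 44.5 FPKM in PLC/PRF5, 153 to 183 FPKM in parental MHCC97H and 290 to 334 FPKM in the libraries labelled knockout. The part of these differences in the results below was not tested.

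EGR1 binds GC-rich DNA, so the start regions of the members were searched on both strands for the 9-letter forms GCGTGGGCG and GCGGGGGCG, the second of which shares letters with the GC box of the Sp family. RefSeq promoter windows of GRCh38.p14, from 250 bases before to 50 bases after each start, existed for 35 of the 39 members. The letters occurred in 4 of these 35 genes (11.4%), beside 6.95% of the 27305 genes with a window. GCGTGGGCG was found in HNRNPDL, 11 bases before a start and again, as the same site, in a second overlapping window, and GCGGGGGCG in HNRNPLL, HNRNPM and SRSF12. No member held both forms. The 250 bases before the start are shown for these 4 genes, with the match in capitals, and for SRSF11, the member with the largest change in both cell lines, which held neither form.
SRSF12 (chr6:89118072-89118321, minus strand): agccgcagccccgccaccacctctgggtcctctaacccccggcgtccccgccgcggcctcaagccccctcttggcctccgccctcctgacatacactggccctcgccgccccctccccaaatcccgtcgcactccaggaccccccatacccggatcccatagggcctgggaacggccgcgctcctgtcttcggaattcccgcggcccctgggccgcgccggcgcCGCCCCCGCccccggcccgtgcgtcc
HNRNPDL (chr4:82430463-82430712, minus strand): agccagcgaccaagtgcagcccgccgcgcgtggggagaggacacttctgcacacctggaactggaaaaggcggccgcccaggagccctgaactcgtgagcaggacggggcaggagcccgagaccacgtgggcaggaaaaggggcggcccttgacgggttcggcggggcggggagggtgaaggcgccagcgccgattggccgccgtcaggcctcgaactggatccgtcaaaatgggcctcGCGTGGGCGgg
HNRNPLL (chr2:38602929-38603178, minus strand): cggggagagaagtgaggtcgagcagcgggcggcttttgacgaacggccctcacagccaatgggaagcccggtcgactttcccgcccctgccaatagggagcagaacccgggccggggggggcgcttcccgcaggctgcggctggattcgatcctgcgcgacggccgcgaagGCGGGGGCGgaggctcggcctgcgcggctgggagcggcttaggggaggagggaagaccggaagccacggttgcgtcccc
HNRNPM (chr19:8444725-8444974, plus strand): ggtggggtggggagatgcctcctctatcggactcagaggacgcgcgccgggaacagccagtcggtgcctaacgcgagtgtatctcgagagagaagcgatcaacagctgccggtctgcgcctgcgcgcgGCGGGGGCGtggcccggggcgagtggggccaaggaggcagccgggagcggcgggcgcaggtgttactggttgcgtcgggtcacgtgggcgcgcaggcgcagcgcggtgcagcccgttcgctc
SRSF11 (chr1:70205446-70205695, plus strand): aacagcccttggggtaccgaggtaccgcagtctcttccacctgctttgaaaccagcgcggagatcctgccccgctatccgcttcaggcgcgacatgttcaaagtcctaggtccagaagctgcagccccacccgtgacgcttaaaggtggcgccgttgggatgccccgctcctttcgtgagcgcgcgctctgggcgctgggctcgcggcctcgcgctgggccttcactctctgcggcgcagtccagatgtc
In SRSF12 the match lay on the opposite strand, 26 bases before the start, and in HNRNPLL and HNRNPM it lay 79 and 122 bases before it. These are matches of letters only. Binding was not measured here. Members had GC-rich starts, with a median GC content of 64.0% over their 49 windows beside 58.7% over all 35116 windows.

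Nearly all members were expressed. HNRNPA1, which represses splice sites and shuttles between nucleus and cytoplasm, had the highest mean level, with 380, 418 and 335 FPKM in the vector libraries, 283, 451 and 420 with EGR1 overexpression, 165, 153 and 163 in parental MHCC97H and 238, 188 and 193 in the libraries labelled knockout. It was followed by HNRNPC, which binds uridine tracts, by the poly(C) binder HNRNPK, by HNRNPA2B1, which is close to HNRNPA1, and by HNRNPAB. HNRNPC held 206, 229 and 231 FPKM with vector, 196, 242 and 252 with EGR1 overexpression, 178, 169 and 177 in parental MHCC97H and 227, 166 and 199 in the libraries labelled knockout. The PLC/PRF5 groups overlapped for HNRNPA1 and HNRNPC, and both genes lay lower in parental MHCC97H than in the vector cells. HNRNPK held 188, 196 and 202 FPKM with vector and 176, 200 and 212 with EGR1 overexpression. HNRNPA2B1 held 177, 222 and 173 FPKM with vector, 213, 273 and 262 with EGR1 overexpression, 175, 151 and 153 in parental MHCC97H and 156, 167 and 138 in the libraries labelled knockout, so that the groups overlapped within each line. HNRNPAB held 204, 216 and 191 FPKM with vector and 204, 217 and 236 with EGR1 overexpression. SRSF2, which binds exonic enhancers, was the most abundant SR gene in both lines, at means of 139 and 121 FPKM in the PLC/PRF5 groups and 208 and 222 FPKM in the MHCC97H groups.

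At the other end, HNRNPCL1 and HNRNPCL2 were listed at 0 in all 12 libraries and HNRNPCL3 and HNRNPCL4 in 11 of 12. These 4 members were never tested, since the fits took genes with a mean of at least 1 FPKM over the 6 libraries compared. The HNRNPA1-like names HNRNPA1L2 and HNRNPA1P48 reached 5.50 and 3.65 FPKM at most. Their sequence is close to that of HNRNPA1, so reads may have been divided among the 3 and their values are uncertain. HNRNPUL2-BSCL2, a read-through that shares exons with HNRNPUL2, varied from 0 to 13.7 FPKM without order among groups.

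Summed over a family, the 12 SRSF genes held 0.131% to 0.154% of the summed FPKM in the vector libraries and 0.153% to 0.170% with EGR1 overexpression, ranges that overlapped at their ends. In parental MHCC97H the share was 0.164% to 0.194%, overlapping with 0.156% to 0.175% in the libraries labelled knockout. The 27 HNRNP genes held 0.539% to 0.574% with vector and 0.555% to 0.624% with EGR1 overexpression. They held less in MHCC97H, at 0.442% to 0.464% in parental and 0.460% to 0.508% in the libraries labelled knockout. Within each line the HNRNP ranges overlapped, and the lines themselves did not overlap.

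**Figure D1:**
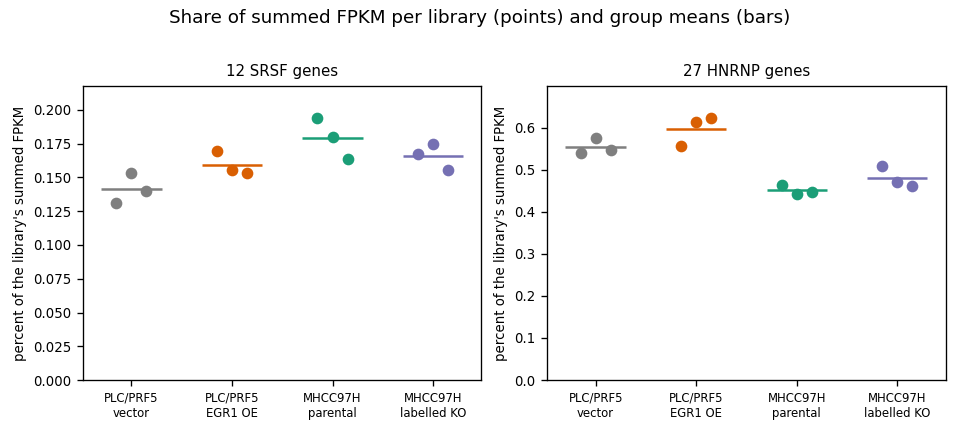
Share of each library's summed FPKM held by the 12 SRSF genes (left) and the 27 HNRNP genes (right), in percent. Points are the 3 libraries of a group and bars are group means. The HNRNP share stayed at or below 0.508% in every MHCC97H library and at or above 0.539% in every PLC/PRF5 library.

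With EGR1 overexpression in PLC/PRF5 some members were higher, in a share near that of all genes. Of 35 members tested, 6 were higher and 0 lower at an adjusted p under 0.05 (limma's moderated test on log2(FPKM + 1), with Benjamini-Hochberg adjustment over 11671 genes). The share of all tested genes called higher was 19.2% and the share called lower was 10.4%, so the members' 17.1% higher was near the background. The SRSF genes supplied 5 of the 6 calls, 5 of 12 tested, and the HNRNP genes 1 of 23. The median log2 fold change was 0.14 over the members and 0.09 over all genes. FPKM of the groups did not overlap for 11 of the 35 members (31.4%), beside 47.7% of all genes. In bulk RNA a change in the make-up of a culture and a change of RNA per cell cannot be told apart.

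SRSF11, an SR protein also known as p54, changed most. Its level was 28.4, 44.6 and 35.9 FPKM with vector and 94.6, 86.2 and 74.2 FPKM with EGR1 overexpression. Every overexpression library lay above every vector library, and the log2 fold change was 1.22 ± 0.16 (SE, n = 3 against 3, adjusted p = 0.00125 by limma). The gene lies at chr1:70205682-70253052. The call held when any of the 6 libraries was left out, with fold changes of 1.06 to 1.38.

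SRSF12, a low-abundance relative of SRSF10, was at 1.26, 1.29 and 1.77 FPKM with vector and 3.04, 2.72 and 2.69 FPKM with EGR1 overexpression, so that the log2 fold change was 0.65 ± 0.11 (adjusted p = 0.00433, limma). Its call also held without any 1 of the 6 libraries. SRSF10, which acts as a splicing repressor when dephosphorylated, was at 11.3, 18.7 and 16.0 FPKM with vector and 24.0, 22.0 and 20.7 FPKM with EGR1 overexpression (log2 fold change 0.53 ± 0.16, adjusted p = 0.0355, limma). It was called in only 1 of the 6 fits that left out a library.

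SRSF1, the founding SR protein, rose from 54.9, 66.6 and 55.6 FPKM to 76.5, 78.6 and 75.2 FPKM (log2 fold change 0.38 ± 0.10, adjusted p = 0.0185, limma). SRSF5 rose from 38.6, 45.7 and 39.8 to 49.2, 55.7 and 55.6 FPKM (0.36 ± 0.10, adjusted p = 0.0223, limma). Both kept the call in 2 of the 6 fits that left out a library. Without vector replicate 1, vector replicate 3, EGR1 replicate 2 or EGR1 replicate 3, only 2 members were called higher, and without vector replicate 2 or EGR1 replicate 1, 11 were called higher. Without EGR1 replicate 1, SRSF2 was also called lower (-0.30, adjusted p = 0.0299 by limma). The other 7 SR genes were not called: SRSF2 had means of 139 and 121 FPKM, SRSF3 63.7 and 74.0, SRSF4 27 and 27.9, SRSF6 39.1 and 40.4, SRSF7 45.2 and 52.2, SRSF8 9.15 and 8.90, and SRSF9 104 and 101. Standard errors of their log2 fold changes were 0.09 to 0.14.

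Among the hnRNP genes, HNRNPH1, which binds runs of G, was called higher. Its level was 129, 170 and 142 FPKM with vector and 180, 221 and 220 FPKM with EGR1 overexpression, so that the log2 fold change was 0.49 ± 0.13 (adjusted p = 0.0211, limma). It kept the call in 2 of the 6 fits that left out a library. Its relatives HNRNPH3 (means of 49.7 and 68.1 FPKM, adjusted p = 0.0518 by limma) and HNRNPH2 (22.3 and 31.0 FPKM, adjusted p = 0.0888 by limma) did not pass the test. HNRNPR, a member with one of the largest differences, did not pass it either, since its overexpression libraries were at 26.0, 60.2 and 79.5 FPKM against 17.5, 24.2 and 37.5 FPKM with vector.

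The remaining hnRNP genes were not called in PLC/PRF5. Means with vector and with EGR1 overexpression were 377 and 385 FPKM for HNRNPA1, 222 and 230 for HNRNPC, 195 and 196 for HNRNPK, 191 and 249 for HNRNPA2B1, and 204 and 219 for HNRNPAB. They were 70.5 and 93.0 FPKM for HNRNPA3, 19.9 and 20.0 for HNRNPA0, 74.3 and 84.3 for HNRNPD, and 42.0 and 65.5 for HNRNPDL. HNRNPF had 70.7 and 81.5 FPKM, HNRNPL, which binds CA repeats, 172 and 150, HNRNPLL 12.9 and 14.3, and HNRNPM 152 and 132. The matrix-associated HNRNPU had 77.8 and 82.0 FPKM, HNRNPUL1 91.2 and 91.7, and HNRNPUL2 34.4 and 38.7. HNRNPA1L2 had 4.04 and 4.10 FPKM, HNRNPA1P48 2.99 and 2.52, and HNRNPUL2-BSCL2 4.89 and 4.6. Standard errors of these log2 fold changes were 0.08 to 0.24, and the 95% interval of the HNRNPA1 difference reached from -0.39 to 0.40. HNRNPL and HNRNPM were lower in every overexpression library than in every vector library without passing the test (adjusted p = 0.117 and 0.112 by limma), and HNRNPM was called lower with libraries scaled to the same total (-0.24, adjusted p = 0.0371 by limma).

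**Figure D2:**
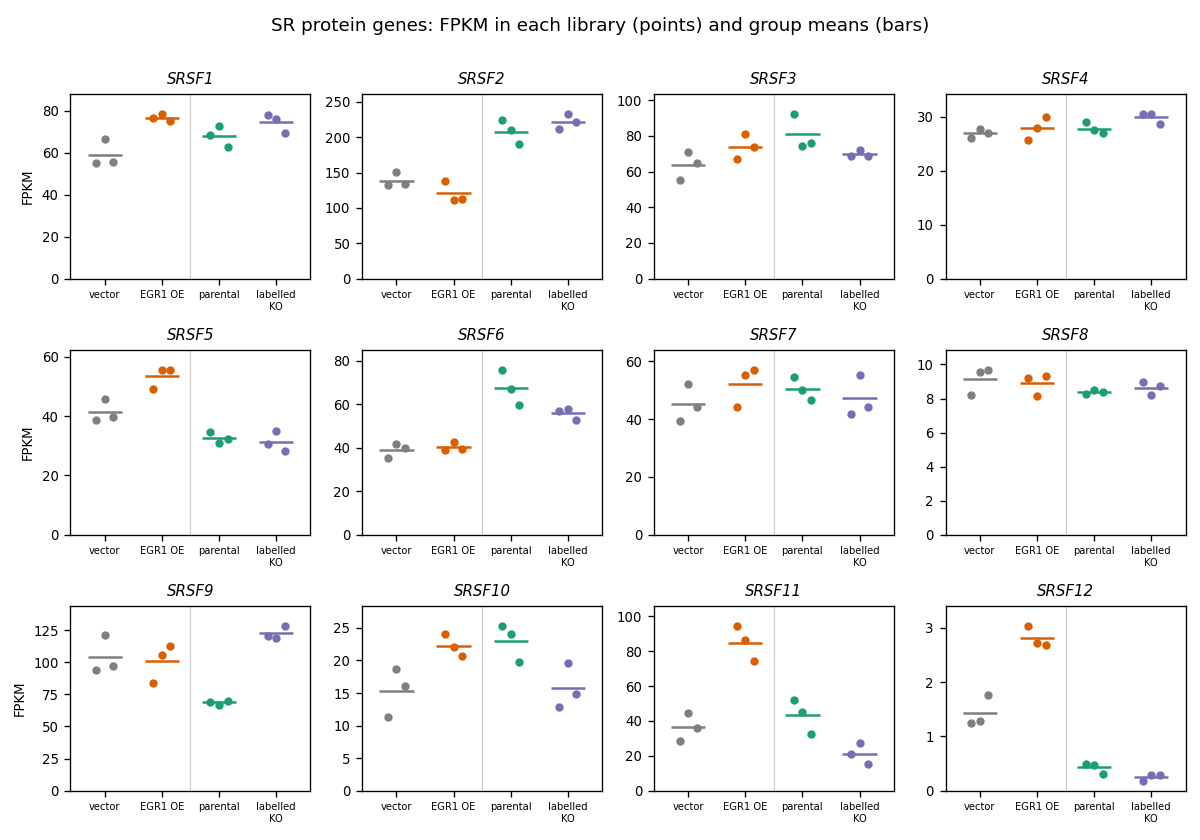
FPKM of SRSF1 to SRSF12 in each library, with a panel per gene and a linear axis from 0. Points are the 3 libraries of each group (vector and EGR1 overexpression, OE, in PLC/PRF5, then parental and labelled knockout, KO, in MHCC97H) and bars are group means. Among the genes whose groups separate are SRSF11 and SRSF10 in both lines and SRSF9 in MHCC97H.

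The libraries labelled EGR1 knockout differed from parental MHCC97H in both directions. Of 34 members tested, 12 were higher and 5 lower, beside 34.8% and 31.5% of 11577 genes. The members' share called higher was 35.3%, near the background, and their share called lower was 14.7%. Of the 12 higher calls 11 were HNRNP genes, of 23 tested (47.8%). Of the 5 lower calls 3 were SRSF genes, of 11 tested (27.3%), a share below the 31.5% of all genes. The groups did not overlap for 17 of 34 members (50%), beside 71.8% of all genes. The split between directions moved with the scaling: 8 higher and 9 lower with total scaling, which gives every library an equal sum, 7 and 12 after quantile normalization, and 22 and 1 after the GC content and length correction described below. Scaling to the same total also moved the median over all genes from 0.02 to -0.11 on the log2 scale and that of the members from 0.09 to -0.06. Counts under total scaling and quantile normalization are given without the share over all genes, so they do not show a trait of the members.

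HNRNPAB, an hnRNP of the A/B type that binds RNA and single-stranded DNA, was at 95.2, 96.6 and 111 FPKM in the parental libraries and 196, 193 and 206 FPKM in those labelled knockout. The groups were far apart relative to their spread (log2 fold change 0.97 ± 0.09, adjusted p = 5.06e-05, limma). SRSF9, the closest relative of SRSF1, was at 69.2, 66.8 and 70.2 FPKM and at 121, 119 and 128 FPKM (0.83 ± 0.08, adjusted p = 5.41e-05, limma). HNRNPAB and SRSF9 were called higher under every scaling and correction run, with smaller values of 0.57 and 0.50 after the GC content and length correction. HNRNPUL2, HNRNPUL1, HNRNPD, HNRNPA0 and HNRNPA1P48, described below, also kept a higher call under total scaling, quantile normalization and that correction.

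HNRNPUL2 went from 19.0, 15.7 and 18.3 FPKM to 26.0, 27.4 and 29.5 FPKM (log2 fold change 0.62, adjusted p = 0.000773, limma). HNRNPUL1, like HNRNPUL2 a relative of HNRNPU, went from 74.5, 82.8 and 88.8 to 137, 113 and 128 FPKM (0.61, adjusted p = 0.000919, limma). HNRNPD, which binds AU-rich elements and is known as AUF1, went from 50.2, 44.2 and 48.7 to 62.8, 65.0 and 78.0 FPKM (0.51, adjusted p = 0.00234, limma). In all 3 genes the lowest library labelled knockout lay above the highest parental library.

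HNRNPM, which binds GU-rich sequences, was at 124, 124 and 125 FPKM in the parental libraries and at 155, 166 and 188 FPKM in those labelled knockout (log2 fold change 0.44, adjusted p = 0.00254, limma), and its call was lost with the correction (0.09, adjusted p = 0.283 by limma). HNRNPA0, which binds AU-rich elements, was at 16.3, 15.5 and 16.2 FPKM and at 21.5, 20.4 and 23.3 FPKM (0.42, adjusted p = 0.00284, limma). HNRNPA1P48 was at 1.08, 0.828 and 0.682 FPKM and at 1.86, 1.55 and 1.37 FPKM (0.48, adjusted p = 0.00995, limma), with the uncertainty of its near-copies. HNRNPA1 itself, with the values given above, rose from a mean of 160 to 207 FPKM (0.36, adjusted p = 0.0147, limma), a call lost without parental replicate 2 and under both scalings. HNRNPK was at 178, 175 and 182 FPKM and at 218, 213 and 213 FPKM (0.27, adjusted p = 0.0122, limma), and it too lost the call without parental replicate 2 and under both scalings. HNRNPL (means of 138 and 163 FPKM, 0.24, adjusted p = 0.042 by limma) and HNRNPA3 (60.4 and 75.8 FPKM, 0.32, adjusted p = 0.0382 by limma) were called with small margins. The HNRNPA3 groups overlapped, and both genes kept the call in 2 of the 6 fits that left out a library and lost it under both scalings. HNRNPM lost its call after quantile normalization (adjusted p = 0.0603 by limma).

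SRSF11 was the member with the largest fall in MHCC97H. It was at 52.0, 45.3 and 32.7 FPKM in the parental libraries and at 21.2, 27.5 and 15.0 FPKM in those labelled knockout (log2 fold change -1.01 ± 0.22, adjusted p = 0.00306, limma). The groups did not overlap, and the call held without any 1 of the 6 libraries. After the GC content and length correction it was -0.38 (adjusted p = 0.0550 by limma). SRSF10 was at 25.3, 24.0 and 19.8 FPKM and at 12.8, 19.5 and 14.8 FPKM (-0.54 ± 0.15, adjusted p = 0.0122, limma), and its sign changed with the correction (0.19, adjusted p = 0.125 by limma). SRSF6, an SR protein also known as SRp55, was at 75.9, 67.1 and 59.6 FPKM and at 56.8, 58.0 and 52.6 FPKM (-0.26, adjusted p = 0.0455, limma), and it was called higher after the correction (0.31, adjusted p = 0.00163 by limma).

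HNRNPDL (means of 43.8 and 30.2 FPKM, -0.53, adjusted p = 0.0147 by limma) and HNRNPH2 (42.3 and 31.8 FPKM, -0.40, adjusted p = 0.0341 by limma) were the other lower calls, both with overlapping groups. After the correction they stood at -0.27 (adjusted p = 0.178 by limma) and -0.07 (adjusted p = 0.603 by limma). Among the lower calls SRSF10 was lost without the library labelled knockout replicate 1, HNRNPDL was kept in 4 of the 6 fits that left out a library, HNRNPH2 in 2 and SRSF6 in 1. The count of lower calls was 1 without the library labelled knockout replicate 1, 2 without parental replicate 1, and 3 without parental replicate 2 or the library labelled knockout replicate 3.

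The other members were not called in MHCC97H. Means in parental libraries and in those labelled knockout were 68 and 74.5 FPKM for SRSF1, 80.9 and 69.7 for SRSF3, 27.8 and 29.9 for SRSF4, 32.6 and 31.3 for SRSF5, 50.4 and 47.2 for SRSF7, and 8.41 and 8.64 for SRSF8. SRSF12 was below 0.5 FPKM in all 6 libraries and was not tested. Among HNRNP genes they were 175 and 197 FPKM for HNRNPC, 160 and 154 for HNRNPA2B1, 82.5 and 87.4 for HNRNPF, 87.9 and 71.3 for HNRNPH1, and 33.9 and 30.6 for HNRNPH3. They were 15.7 and 15.2 FPKM for HNRNPLL, 31.0 and 26.0 for HNRNPR, 106 and 94.8 for HNRNPU, 1.47 and 1.33 for HNRNPA1L2, and 4.24 and 6.66 for HNRNPUL2-BSCL2. Standard errors were 0.08 to 0.18 on the log2 scale, apart from 0.76 for HNRNPUL2-BSCL2. SRSF3, HNRNPU, HNRNPH1 and HNRNPH3 were called lower under both scalings.

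**Figure D3:**
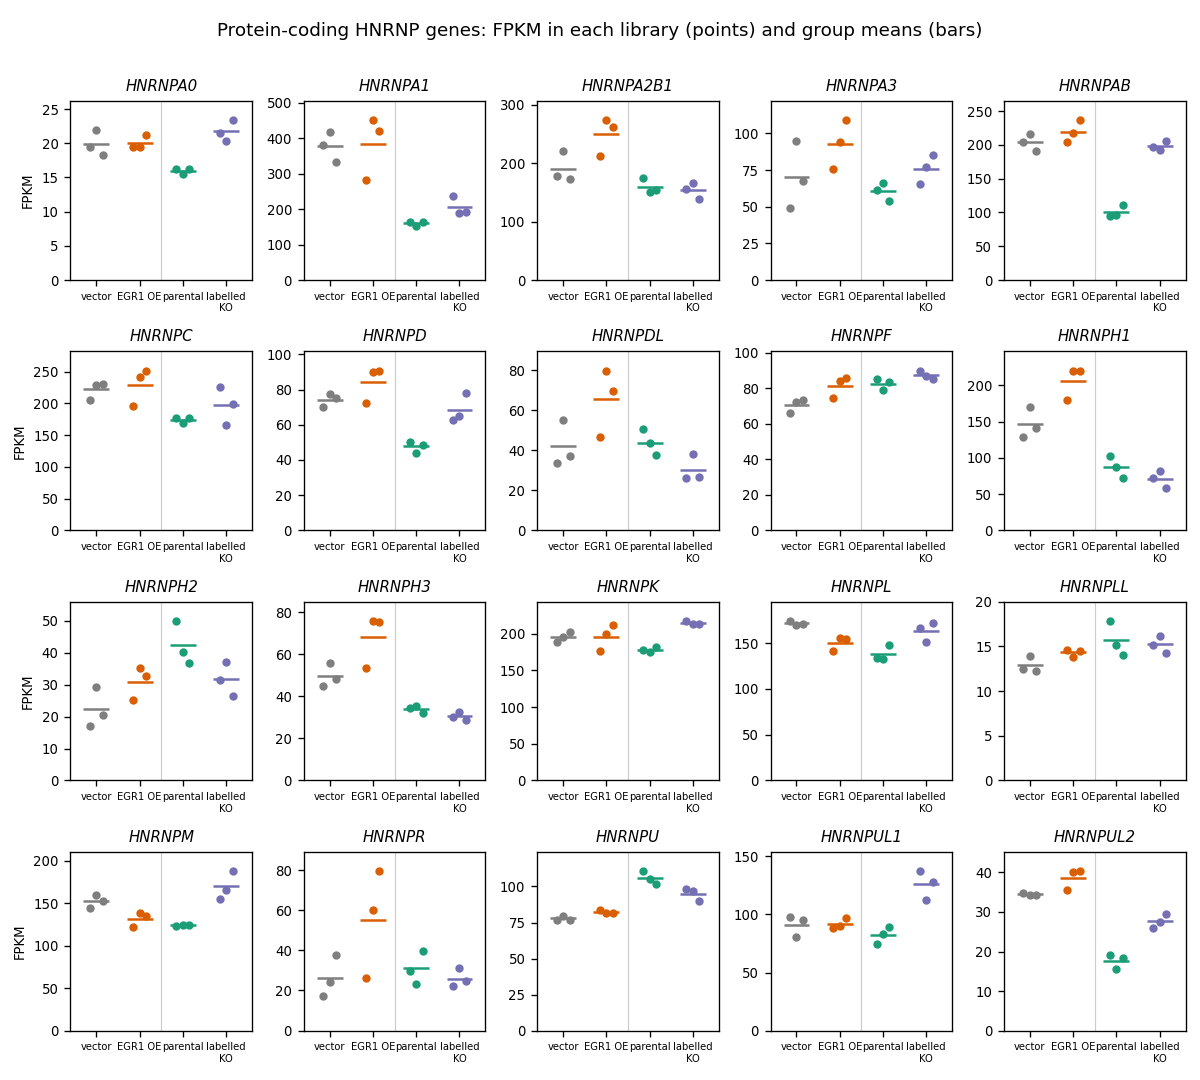
FPKM of the 20 protein-coding HNRNP genes other than near-copies and the read-through, in each library, with a panel per gene and a linear axis from 0. Points are the 3 libraries of each group (vector and EGR1 overexpression, OE, in PLC/PRF5, then parental and labelled knockout, KO, in MHCC97H) and bars are group means. HNRNPAB and HNRNPUL2 are among the genes whose MHCC97H groups separate, as those of 71.8% of all genes tested there did. HNRNPA1 and HNRNPAB are among those lower in parental MHCC97H than in the vector cells.

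Fold changes in this series moved with the GC content of the transcript, most of all in MHCC97H. Across 10806 genes with a known GC content, Spearman's rho between GC content and log2 fold change was 0.767 in MHCC97H, and across 10829 genes in PLC/PRF5 it was -0.449. These are descriptions across genes of the same 6 libraries. The members had AT-rich transcripts, with a median GC content of 42.6% over the 34 tested in MHCC97H beside 48.7% over all genes, and a range from 35.3% for HNRNPR to 57.0% for HNRNPUL2-BSCL2. Over the members rho was 0.564 in MHCC97H and -0.613 in PLC/PRF5.

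In MHCC97H the 17 members of lower GC content had a median log2 fold change of -0.10, with 4 higher and 4 lower calls, and the 17 of higher GC content had a median of 0.24, with 8 higher and 1 lower. In PLC/PRF5 the order was opposite, with medians of 0.30 for the 18 members of lower and 0.01 for the 17 of higher GC content. All genes between 38% and 41% GC had a median of -0.58 in MHCC97H and 0.29 in PLC/PRF5, whereas those between 53% and 56% had 0.39 and 0.00. Set against the median of all genes in its own bin of 3 percentage points of GC content, 27 of 34 members (79.4%) lay above it in MHCC97H and 16 of 35 (45.7%) in PLC/PRF5. By family, 6 of 12 SRSF genes (50%) and 10 of 23 HNRNP genes (43.5%) lay above it in PLC/PRF5.

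**Figure D4:**
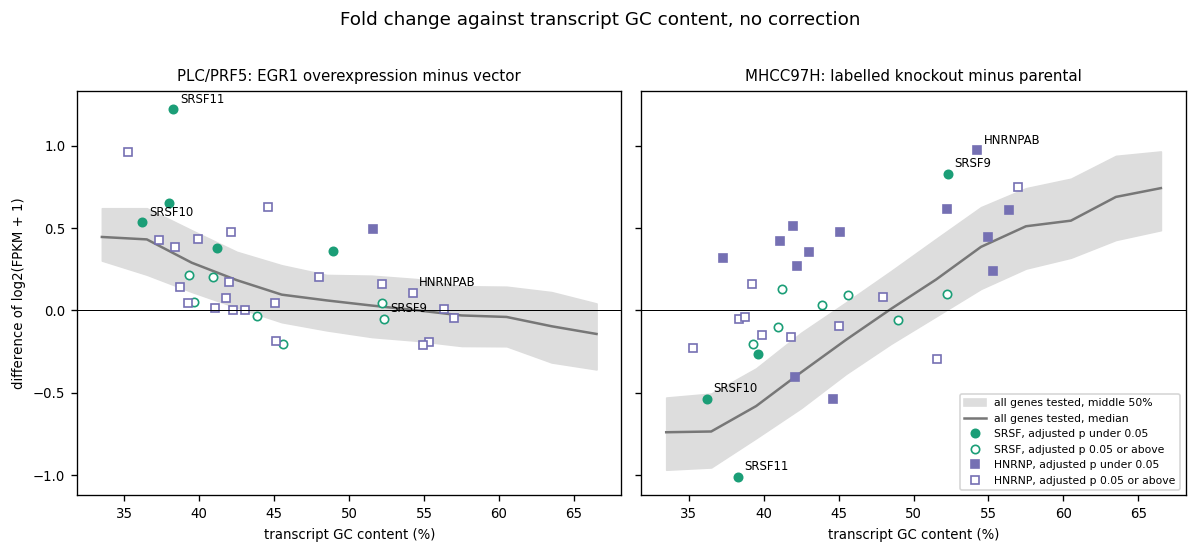
Log2 fold change against the GC content of the longest coding transcript, in percent, without correction, for PLC/PRF5 (left) and MHCC97H (right). The grey line and band give the median and the middle 50% of all genes in bins of 3 percentage points, circles are SRSF genes, squares HNRNP genes, and filled symbols have an adjusted p under 0.05. In MHCC97H most members of low GC content lie above the band and SRSF11 lies below it, and in PLC/PRF5 SRSF11 lies above the band.

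When the trends on GC content and transcript length were removed from each library, the MHCC97H comparison gave 22 members higher and 1 lower, where the shares over 10806 genes were 27.6% higher and 18.3% lower. The median over the members went from 0.09 to 0.35, while that over all genes went from 0.02 to 0.03. With GC content alone corrected the counts were 21 and 0, and with the mean over all coding transcripts of a gene 19 and 0. The counts of these further corrections are given without the share over all genes, so they do not show a trait of the members. Higher calls outnumbered lower ones with and without the GC content trend, and the number of each depended on whether it was taken out. Total scaling and quantile normalization turned the balance. Which of these reflects the RNA in the cells was not tested.

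The corrected rises were spread over both families, 7 of 11 SRSF and 15 of 23 HNRNP genes. The largest were those of HNRNPA3 with 1.06, HNRNPA0 with 1.01, HNRNPD with 0.92, HNRNPC with 0.77, and HNRNPA1 with 0.72 on the log2 scale. HNRNPK had 0.65, HNRNPR 0.64, at the edge of the threshold, HNRNPLL 0.58, HNRNPAB 0.57 and HNRNPA2B1 0.57. HNRNPA1P48 had 0.55, HNRNPUL2 0.48, HNRNPU 0.36, HNRNPH3 0.33 and HNRNPUL1 0.24. Among SR genes the corrected values were 0.59 for SRSF1, 0.50 for SRSF9, 0.38 for SRSF3, 0.35 for SRSF8, 0.33 for SRSF7, 0.31 for SRSF6 and 0.26 for SRSF2. HNRNPL was the lower call, at -0.15 (adjusted p = 0.0352 by limma), against a higher call without correction.

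In PLC/PRF5 the same correction left 7 members higher and 0 lower, beside 25.7% and 11.8% of 10829 genes. SRSF11 (1.00), HNRNPH1 (0.58), SRSF5 (0.44), SRSF12 (0.42) and SRSF1 (0.27) kept their calls, HNRNPF (0.26) and HNRNPAB (0.24) gained one, and SRSF10 lost it (0.23, adjusted p = 0.0570 by limma).

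**Figure D5:**
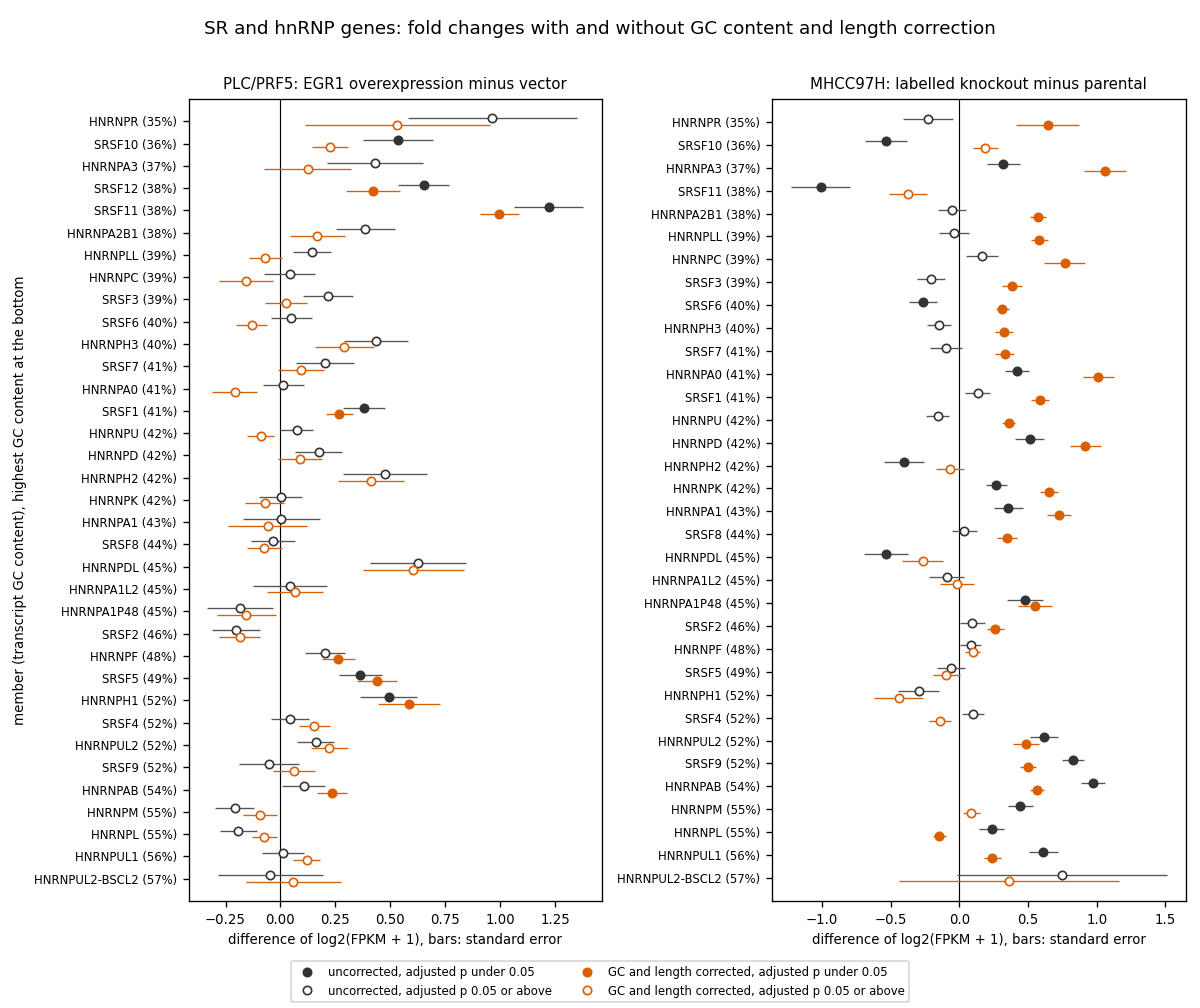
Difference of log2(FPKM + 1) for each tested member in PLC/PRF5 (left) and MHCC97H (right), without correction (dark) and after the GC content and length correction (orange), with standard errors as bars. Members are ordered by GC content, given in brackets, with the lowest at the top, and filled symbols have an adjusted p under 0.05. In MHCC97H the correction shifts members of low GC content to the right and those of high GC content to the left, and SRSF11 stays below 0.

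SRSF11 and SRSF10 were the members called in both cell lines, 2 of 34 tested in both, when no correction was made. Both were higher with EGR1 overexpression in PLC/PRF5 and lower in the libraries labelled knockout, where EGR1 mRNA was higher than in the parental cells. Over all 10369 genes tested in both lines, 17.9% were called in both in opposite directions. Both genes have AT-rich transcripts, of 38.3% and 36.2% GC. After the GC content and length correction neither was called in MHCC97H. The members called in both lines were then SRSF1 (0.27 in PLC/PRF5 and 0.59 in MHCC97H) and HNRNPAB (0.24 and 0.57), both higher in each line, and 0 members were called in opposite directions. Without the correction SRSF1 was not called in MHCC97H (0.13, adjusted p = 0.221 by limma), nor HNRNPAB in PLC/PRF5 (0.11, adjusted p = 0.428 by limma). With the replicate number as a block besides the correction, HNRNPAB was not called in PLC/PRF5 (adjusted p = 0.0529 by limma). SRSF11 and HNRNPH1 were then called higher in PLC/PRF5 and lower in MHCC97H. Over all genes 25.7% were called higher in PLC/PRF5 and 27.6% in MHCC97H after the correction. The share of all genes called in both is not given here, so these 2 members are not set apart from other genes.

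The members' levels also differed between the lines before manipulation. In parental MHCC97H against vector PLC/PRF5, 7 members were higher and 14 lower, beside 38.8% and 40.9% of 12046 genes, and the HNRNP genes had 3 higher and 12 lower. After quantile normalization the split was 12 and 10, and with libraries scaled to the same total 10 and 13, and 4 were higher without parental replicate 1. After the GC content and length correction it was 5 and 17 (14.7% and 50% of members), beside 38% and 43.4% of 11214 genes. Counts under quantile normalization, under total scaling and without parental replicate 1 are given without the share over all genes. They do not show a trait of the members. Cell line, vector and library batch cannot be told apart in this contrast, and it shares its libraries with the others. HNRNPA1 had means of 377 and 160 FPKM (log2 fold change -1.22, adjusted p = 3.06e-06 by limma), HNRNPAB 204 and 101 FPKM (-1.01, adjusted p = 7.59e-06) and HNRNPUL2 34.4 and 17.7 FPKM (-0.93, adjusted p = 1.77e-05). HNRNPA1P48 (-1.09, means of 2.99 and 0.865 FPKM) and HNRNPA1L2 (means of 4.04 and 1.47 FPKM) were lower with HNRNPA1. HNRNPH2 had means of 22.3 and 42.3 FPKM (0.92, adjusted p = 0.00186 by limma), SRSF6 39.1 and 67.5 FPKM (0.77), SRSF2 139 and 208 FPKM (0.58), SRSF10 15.3 and 23.0 FPKM (0.58) and HNRNPU 77.8 and 106 FPKM (0.44). After the GC content and length correction HNRNPAB stood at -0.52, SRSF6 at 0.29, SRSF10 at -0.01 and HNRNPU at -0.06.

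Of the 14 members called lower in parental MHCC97H than in the vector cells, 9 were called higher in the libraries labelled knockout than in parental ones. They were HNRNPAB, HNRNPUL2, SRSF9, HNRNPA1, HNRNPA1P48, HNRNPD, HNRNPM, HNRNPL and HNRNPA0. The means side by side of the 3 with the largest rise in MHCC97H were 204, 101 and 199 FPKM for HNRNPAB, 34.4, 17.7 and 27.6 FPKM for HNRNPUL2, and 104, 68.7 and 123 FPKM for SRSF9 in vector, parental and labelled knockout libraries. The parental libraries enter both contrasts with opposite signs, so a low value there favours both calls. Over all 11577 genes tested in MHCC97H, 34.8% were called higher. The share among all genes called lower in parental cells is not given here. After the GC content and length correction 13 of 17 members met both calls, without SRSF9, HNRNPM and HNRNPL. The difference of SRSF9 between the lines was -0.59 without and -0.02 with the GC content and length correction.

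The ratio of 2 genes within a library hardly depends on how that library is scaled, and 12 pairs of similar proteins were compared in both lines. With 3 libraries against 3 an exact 2-sided permutation test cannot go below p = 0.1, so none of the 24 tests could pass, and the smallest adjusted p was 0.24. HNRNPD/HNRNPDL showed a mean log2 ratio of 0.13 ± 0.21 (SD) in parental MHCC97H and 1.17 ± 0.39 in the libraries labelled knockout. These groups did not overlap without the correction (difference 1.05) or with it (1.18). HNRNPA1/HNRNPA2B1 went from 0.01 to 0.42 in MHCC97H and from 0.98 to 0.60 in PLC/PRF5, also without overlap in either line, and the differences were 0.15 and -0.23 after the correction. SRSF1/SRSF9 went from -0.02 to -0.71 in MHCC97H and from -0.81 to -0.38 in PLC/PRF5, and the MHCC97H difference was 0.09 after the correction.

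The other pairs gave differences that overlapped between groups or changed with the correction. In MHCC97H these were -0.77 for HNRNPU/HNRNPUL1 (0.12 corrected), -0.67 for HNRNPR/HNRNPM (0.56), 0.36 for SRSF4/SRSF6 (-0.46), 0.27 for HNRNPL/HNRNPLL (-0.73) and 0.10 for HNRNPH1/HNRNPH2 (-0.37). SRSF2/SRSF8, SRSF3/SRSF7 and HNRNPA3/HNRNPA0 differed by 0.06, -0.11 and -0.10, and SRSF10/SRSF12 by -0.35 with SRSF12 near the floor. In PLC/PRF5 HNRNPL/HNRNPLL differed by -0.34 without overlap (-0.01 corrected), and HNRNPR/HNRNPM by 1.17, HNRNPD/HNRNPDL by -0.45, HNRNPA3/HNRNPA0 by 0.42, SRSF2/SRSF8 by -0.17 and SRSF10/SRSF12 by -0.12 with overlapping groups. HNRNPU/HNRNPUL1 (0.06), HNRNPH1/HNRNPH2 (0.02), SRSF3/SRSF7 (0.01) and SRSF4/SRSF6 (-0.01) lay near 0. After the correction the groups of HNRNPU/HNRNPUL1 (-0.21), HNRNPH1/HNRNPH2 (0.17) and SRSF4/SRSF6 (0.28) no longer overlapped.

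Other splicing genes, in 5 lists of 103 names, set the members in context. In PLC/PRF5, 25 of 93 tested were higher (26.9%) and 4 lower (4.3%), beside 19.2% and 10.4% of all genes, with a median of 0.16. In MHCC97H 29 of 92 were higher (31.5%) and 30 lower (32.6%), near the 34.8% and 31.5% of all genes. The median there was -0.06. After the GC content and length correction 23 were higher and 20 lower in MHCC97H, beside 27.6% and 18.3% of all genes. These shares of all genes are the background for each list below. SR-related proteins and SR protein kinases had 5 higher and 0 lower of 13 in PLC/PRF5 and 1 higher and 8 lower in MHCC97H, or 0 and 6 after the correction. SREK1, an SR-related regulator, rose from a mean of 4.11 to 10.5 FPKM in PLC/PRF5 (log2 fold change 1.18) and fell from 11.7 to 4.98 FPKM in MHCC97H (-1.14), the latter not called after the correction (-0.36, adjusted p = 0.110 by limma). The kinase CLK4, which phosphorylates SR proteins, rose by 0.92 in PLC/PRF5, and SON, a speckle scaffold with an SR domain, fell by 1.03 in MHCC97H, from 65.4 to 31.6 FPKM, and by 0.84 after the correction.

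The hnRNP proteins with other symbols had 1 higher of 11 in PLC/PRF5, TARDBP (0.43), and 6 higher and 3 lower in MHCC97H, led by PTBP3 (-1.20) and RALY (1.18). Spliceosome core proteins had 5 higher and 1 lower of 35 in PLC/PRF5, among them SF3B1 (0.58) and SNRPA1 (0.43), and 15 higher and 8 lower in MHCC97H, led by SF3A2 (1.53) and PRPF6 (1.09). Other regulators of alternative splicing had 9 higher and 2 lower of 20 in PLC/PRF5, with MBNL2 at 1.24 and RBM39 at 0.86, and 2 higher and 9 lower of 19 in MHCC97H, with TIA1 at -1.22. MATR3 had the largest value there (-2.70), with uneven levels of 60.3 ± 26.2 FPKM in the parental libraries and 9.97 ± 9 FPKM (SD) in those labelled knockout. Nonsense-mediated decay factors had 5 higher and 1 lower of 14 in PLC/PRF5, with MAGOH at 0.89 and SMG1 at 0.82, and 5 higher and 2 lower in MHCC97H, with SMG1 at -0.88 and UPF1 at 0.68.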

How the data were processed

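Total RNA of 12 cultures, 3 in each of 4 groups, was enriched with oligo(dT) and sequenced on an Illumina NovaSeq by the authors, who deposited 1 FPKM value per gene name and library. The submitters' processing notes name StringTie and the hg38 build. The deposited FPKM are scaled by transcript length and by library. Their low values form no clean whole-read steps, so read depth is unknown and no counting error is given. The labels call the libraries biological replicates without saying how the cultures were separated, so p-values measure the spread between these libraries.

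Log2(FPKM + 1) of genes with a mean of at least 1 FPKM in the 6 libraries compared was fitted with limma 3.58.1 in R 4.3.3 (intensity trend, 2-sided, Benjamini-Hochberg over all genes tested, threshold 0.05), each comparison alone. The fits were tested on simulated data. Ratios of pairs were tested by exact permutation. For the GC content and length correction, a spline with 5 degrees of freedom on the GC content and log2 length of the longest GENCODE transcript, coding first, was removed from each library's deviations. GC content was matched for 19458 names (84.7%), or 97.6% of names other than the 3031 given by the transcript assembly. The corrected fits use only matched genes.

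Members and lists were chosen with earlier results of these data known. Values of every library are given for members with an adjusted p under 0.05 and groups that do not overlap (the 8 largest rises and 8 largest falls in each line) and for the 5 of highest mean level. The other tested members are given by group means, and each splicing list by its 2 largest calls in each line. HNRNPR, HNRNPH2 and HNRNPH3 values were placed first among the uncalled genes after they were seen. Alternatives were a pseudocount of 0.1, a threshold of 0.01, FPKM above 0 in at least 1 library as the filter, total scaling, quantile normalization, no intensity trend, all 12 libraries in 1 fit, the replicate number as a block, the correction with and without that block, and leaving out each library. Correction for GC content alone, and with the mean over a gene's coding transcripts, were added after seeing the data. Figures were drawn with matplotlib 3.10.9.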

Additional observations from a re-analysis of the deposited data

How the results depend on the processing

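Depth is unknown, and each group has 3 libraries. Counts in this section stand without the share over all genes under the same setting, so they do not show a trait of the members. Gene-level FPKM do not separate coding from unproductive transcripts, and the cause of the changes listed here was not tested. In PLC/PRF5 the members called higher numbered 6, against 2 at a threshold of 0.01, 10 after quantile normalization and 2 to 11 when 1 library was left out, and the members called lower numbered 1 with total scaling and 0 to 1 when 1 library was left out. Of the other splicing genes there, 12 were higher at a threshold of 0.01, 38 after the GC content and length correction and 13 to 33 with 1 library left out. Those called lower numbered 0 at a threshold of 0.01, 1 with the wider filter, total scaling, no intensity trend or GC content correction alone, 2 after quantile normalization, and 0 to 3 with 1 library left out.

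In MHCC97H the members called higher numbered 12, against 7 after quantile normalization, 22 after the GC content and length correction, 21 with GC content alone, 19 with the mean over transcripts and 9 to 12 with 1 library left out. Those called lower numbered 5, against 1 at a threshold of 0.01, 2 with the wider filter, 9 with total scaling, 12 after quantile normalization, 1 after the correction, 0 with GC content alone or the mean over transcripts, and 1 to 6 with 1 library left out. Of the other splicing genes, 19 were higher after quantile normalization, and 19 were lower at a threshold of 0.01 and 18 with GC content alone. EGR1 stood at 0.47 (adjusted p = 0.052 by limma) with GC content alone. Members whose sign turned in MHCC97H, and that were called with or without the alternative, had these log2 fold changes after the GC content and length correction, which the added block leaves as they are: SRSF10 0.19, HNRNPR 0.64, HNRNPU 0.36, HNRNPL -0.15, HNRNPH3 0.33, SRSF7 0.33, SRSF6 0.31, SRSF3 0.38, HNRNPA2B1 0.57 and HNRNPLL 0.58. With GC content alone they were 0.22 for SRSF10, 0.29 for HNRNPU, -0.12 for HNRNPL, 0.42 for HNRNPH3, 0.023 for HNRNPH2, 0.40 for SRSF7, 0.31 for SRSF6, 0.39 for SRSF3, 0.59 for HNRNPA2B1 and 0.59 for HNRNPLL. With the mean over transcripts they were 0.44 for HNRNPU, -0.069 for HNRNPL, 0.27 for HNRNPH3, 0.051 for HNRNPH2, 0.30 for SRSF7, 0.41 for SRSF6, 0.47 for HNRNPA2B1 and 0.51 for HNRNPLL. Quantile normalization turned HNRNPK to -0.039, HNRNPL to -0.042 and HNRNPF to -0.23. Called in neither fit, SRSF4 turned to -0.14 after the GC content and length correction, and quantile normalization turned HNRNPC to -0.11, SRSF1 to -0.14, SRSF2 to -0.21, SRSF4 to -0.068 and HNRNPA1L2 to 0.038.

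Between parental MHCC97H and vector PLC/PRF5, the members called higher numbered 7, against 4 at a threshold of 0.01, 12 after quantile normalization and 4 to 10 with 1 library left out. SRSF10 stood at -0.0078 after the GC content and length correction and -0.045 with GC content alone, and HNRNPU at -0.060 after the correction and -0.10 with the mean over transcripts.

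The labels do not say whether same-numbered replicates shared more than a number. Their deviations correlated at -0.13, 0.14 and -0.08 in PLC/PRF5 and at 0.03, 0.03 and 0.47 in MHCC97H. Those of unlike-numbered replicates correlated at -0.165 to 0.205 in PLC/PRF5 and -0.408 to 0.381 in MHCC97H. With the replicate number as a block, 12 members were higher and 0 lower in PLC/PRF5, and 12 were higher and 6 lower in MHCC97H. Of the other splicing genes, 1 was lower in PLC/PRF5 with the block and 2 with the block and the GC content and length correction. In MHCC97H that correction with the block gave 22 members higher and 3 lower.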
